A study of Homo sapiens with 9 samples.

Results

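UBE3D knockout cells were compared with wild-type cells across 2 sets of genes: 5001 genes with a mean of 50 CPM (counts scaled to a common library size) or more in both groups, and 3329 tested noncoding genes. The sets share 29 genes and together hold 8301 of the 21994 genes tested, out of 26485 in the count table. Abundant genes were given priority because wild-type libraries carry low-level reads over the coding exons of silent genes that knockout libraries lack, and noncoding genes because they hold little or no coding sequence. The cells are HEK293, a line derived from human embryonic kidney. KO is HEK293 with UBE3D knocked out by CRISPR/Cas9 (3 libraries), WT is HEK293 with UBE3D intact (3 libraries), and both were grown in DMEM with 10% serum. The other group, addback (3 libraries), is KO cells with UBE3D returned, which is used here for the spread of the fit and in a few values set side by side. All RNA was poly(A)-selected. The labels call each sample pooled, and do not say whether KO was 1 clone or whether replicate libraries had cultures of their own. The p-values therefore measure only the spread between these libraries, which may be technical.

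UBE3D is an E3 ubiquitin ligase, an enzyme that attaches ubiquitin to other proteins. The series links it to CPSF3 (CPSF73), the nuclease that cuts a nascent transcript at its poly(A) site so that a tail can be added and transcription can end. When that cut is late or missed, RNA polymerase runs past the end of the gene, and the downstream RNA can be joined to the next gene. Because polyadenylated transcripts of the nucleus pass through this step, both abundant messages and noncoding transcripts were examined. Levels of poly(A) RNA in whole cells do not measure cleavage or transcription, and neither was tested here.

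UBE3D itself (chromosome 6, 82892398-83065841, minus strand) stood at 13.0, 15.5 and 14.2 CPM in KO libraries 1 to 3 and at 19.4, 21.4 and 26.6 in WT. The groups did not overlap, and UBE3D RNA was lower in KO but still present (log2 fold -0.64 ± 0.13 SE, edgeR adjusted p = 0.00343). With scaling factors from all genes the fold was -0.28 and did not pass the test (edgeR adjusted p = 0.142). Its estimated background is 13.2% of the WT level, and the fold was -0.51 after subtraction. All 10 of the HEK293 markers examined had at least 1 CPM in every KO library, with sums of 755 to 876 CPM in KO and 1419.5 to 1454 in WT, a gap carried by IRS4 (means of 209 and 836). The 5 blood markers summed to 1.58 to 1.86 CPM in KO and to 10.8 to 62.2 in WT. Of the HeLa, fibroblast and breast epithelium markers, 2 of 5, 2 of 6 and 3 of 5 reached 1 CPM in every KO library, TFF1 had no count there, and the 3 lists summed to 70.8 to 82.6, 44.1 to 52.1 and 334 to 345 CPM in KO against 91.9 to 119, 52.5 to 111 and 288 to 300.4 in WT. The part of other cells in the results was not tested. In RNA from whole cultures, fewer cells that express a gene and less RNA per cell cannot be told apart.

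Libraries held 23088295 to 37508780 counts. Reads reached 14.5% to 17.0% of 578 tissue-restricted genes in KO libraries and 94.8% to 95.3% in WT. Per kilobase of coding exon this background was estimated at 0.876, 2.39 and 4.23 CPM in WT libraries 1 to 3 and at 0 in KO. In addback libraries 1 to 3 this background was 0.817, 3.43 and 3.46 CPM, so it was not confined to WT. Among the 5001 abundant genes its share of the WT level had a median of 4.12% and a maximum of 39.2%. Folds followed that share: 1198 genes with under 2% had a median log2 fold of 0.09, 549 genes with 10% to 20% had -0.18 and the 58 genes above 20% had -0.51. After subtraction of the estimated background these medians were 0.04, -0.05 and -0.11. For named genes whose call it changes, values are also given with the background subtracted once or at 2 times its estimate.

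**Figure D1:**
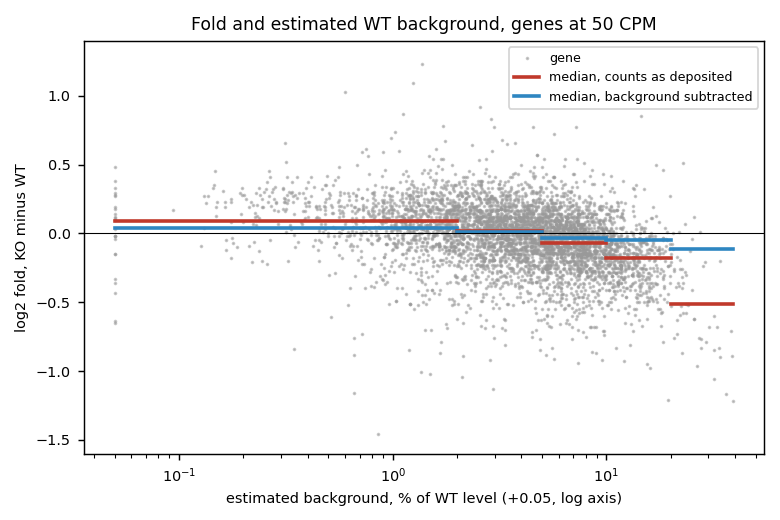
Log2 fold between KO and WT (vertical axis) against the estimated coding-exon background as a percent of the WT level (horizontal log axis), 1 grey point per gene at 50 CPM or more in both groups. Lines are medians within bins of background share: from 0.09 to -0.51 for counts as deposited (red) and from 0.04 to -0.11 after subtraction (blue).

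The gene starts shown here belong to genes of the translation machinery and to hosts of small nucleolar RNAs (snoRNAs), which rose in KO. Messages of the translation apparatus often begin with a 5′ terminal oligopyrimidine (TOP) tract: a C at the cap followed by an unbroken run of C and T. Each line gives 10 bases before and 20 bases from the RefSeq start (build GRCh38.p14), and capitals mark the tract where the start is C with at least 4 further C or T bases. The last 4 genes also rose and have no such tract at this start.
EEF2, chr19:3985444-3985473, minus strand: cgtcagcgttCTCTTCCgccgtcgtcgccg
GNB2L1 (RACK1), chr5:181243887-181243916, minus strand: gcttttctctCTCTCTTTCactgcaaggcg
EIF3D, chr22:36529147-36529176, minus strand: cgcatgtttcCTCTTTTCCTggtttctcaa
RPS19, chr19:41860245-41860274, plus strand: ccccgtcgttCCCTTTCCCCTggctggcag
DDX21, chr10:68956160-68956189, plus strand: ggggaactacCTCTTCCTCTCCacgcggtt
ZFAS1, chr20:49278632-49278661, plus strand: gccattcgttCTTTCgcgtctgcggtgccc
SNHG5, chr6:85678714-85678743, minus strand: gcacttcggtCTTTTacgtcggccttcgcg
C6orf48 (SNHG32), chr6:31834906-31834935, plus strand: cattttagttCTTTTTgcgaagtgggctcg
EIF2S1, chr14:67360318-67360347, plus strand: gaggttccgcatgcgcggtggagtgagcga
GNL3, chr3:52685910-52685939, plus strand: aaccagtcccgcggccgccaagcgatccct
SNHG17, chr20:38435309-38435338, minus strand: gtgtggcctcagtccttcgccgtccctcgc
RPS27A, chr2:55231893-55231922, plus strand: agtgacacacaagacccagactcttcccta

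Most abundant genes moved by little. Of the 5001 genes, 1280 were called higher in KO and 1320 lower at an edgeR adjusted p under 0.05 (52.0% called in all, 25.6% higher and 26.4% lower), against 62.3% called among all 21994 tested genes. The 5th and 95th percentiles of their log2 folds were -0.46 and 0.31, with a median of -0.01. Only 26 genes (0.520%) rose and 115 (2.30%) fell by 1.5-fold or more. The split of calls rests on the scaling: with TMM factors from all genes, whose median for this set lies at 0.35, 3106 genes were called higher and 88 lower, and with upper quartile factors 2185 and 519. A total of 3005 genes had KO and WT libraries that did not overlap. Of these, 1606 were called and kept their direction with TMM factors from all genes and from genes of low background and after both subtractions, 1220 higher and 386 lower. TMM factors from all genes move folds of abundant genes upward, so that condition takes out small decreases and leaves increases. The counts of 1220 and 386 therefore do not compare how steady each direction is. Genes are named by level from these 1606. At the limit itself, 97 genes with 50 to 51 CPM in the lower group had a median fold of -0.12, and 98 genes with 49 to 50 CPM had -0.07.

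Genes at 100 to 300 CPM that rose include a linker histone, a cell cycle inhibitor and an elongation factor. H1F0, the replication-independent linker histone H1.0, stood at 287, 225 and 274 CPM in KO and at 134, 114 and 120 in WT. The lowest KO library was well above the highest WT library, and the log2 fold was 1.09 ± 0.09 (edgeR adjusted p = 0.000169). CDKN1A, which encodes the cyclin-dependent kinase inhibitor p21, stood at 234, 179 and 226 against 126, 109 and 116 CPM (0.87 ± 0.10, adjusted p = 0.000596). EEF1A2, the isoform of elongation factor eEF1A known from muscle and neurons, varied little within groups, at 221, 229 and 218 against 129, 125 and 121 CPM (0.83 ± 0.04, adjusted p = 2.11e-05). DPYSL3, a cytoskeleton regulator of growing axons, rose by 0.77, the membrane-binding annexins ANXA2 and ANXA1 by 0.67 and 0.68, and the TGF-beta signal carrier SMAD3 by 0.66.

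Genes at 50 to 100 CPM that rose include a small GTPase, an ephrin receptor and an ephrin. RHOB, a small GTPase of actin and endosomes, stood at 95.6, 144 and 99.6 CPM in KO and at 60.6, 58.6 and 59.8 in WT. Its KO libraries spread widely, with library 2 the highest, but none reached down to WT (0.92 ± 0.14, edgeR adjusted p = 0.00129). The receptor tyrosine kinase EPHA2, which binds ephrin-A ligands, stood at 89.2, 98.4 and 91.0 against 48.3, 61.5 and 44.4 CPM (0.85 ± 0.11, adjusted p = 0.00082). Also higher were the LIM-domain gene CSRP1 (0.77), the inhibitory SMAD gene SMAD7 (0.72), the ephrin gene EFNB2 (0.65), the redox regulator NXN (0.57) and SLC2A1, the glucose transporter GLUT1 (0.54).

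Genes above 300 CPM that rose have varied roles. TAGLN2, an actin-binding transgelin, stood at 973, 1101 and 922 CPM in KO against 665, 651 and 583 in WT (0.66 ± 0.08, edgeR adjusted p = 0.000669). The ferritin light chain FTL (0.48 ± 0.05), the stress-response factor ATF4 (0.46 ± 0.06), the RNA-binding RBM42 (0.46 ± 0.06) and thymosin beta-4 TMSB4X, which holds actin monomers (0.45 ± 0.04), rose by similar amounts. Above 1000 CPM, MYH9, the heavy chain of nonmuscle myosin IIA, stood at 1385, 1896 and 1342 against 919, 923 and 841 CPM (0.78 ± 0.12, adjusted p = 0.00141). The actin crosslinker FLNA (0.45), the glycolytic enolase ENO1 (0.45), fibronectin FN1 (0.39), the chaperone HSP90AA1 (0.37) and RPS19 (0.35) rose as well. KO library 2 was the highest for RHOB, CSRP1, TAGLN2, MYH9 and FLNA, at 2942 CPM for FLNA against 2272 and 2248 in libraries 1 and 3.

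Decreases at 50 to 100 CPM included basement membrane and lipid genes. LAMA1, laminin alpha 1, stood at 49.7, 56.0 and 51.8 CPM in KO against 98.2, 129 and 137 in WT (-1.21 ± 0.18, edgeR adjusted p = 0.00132). Its WT level contains an estimated 19.3% background, and the fold was -0.63 with 2 times the background subtracted. SUMF2, an endoplasmic reticulum protein of the sulfatase-modifying family, had 2.9% background and stood at 50.5, 42.5 and 53.0 against 112, 102 and 107 CPM (-1.13 ± 0.08, adjusted p = 6.22e-05). MSMO1, a demethylase of sterol synthesis, fell by 0.89 on the log2 scale. The chromatin gene BAHCC1 fell by 0.98, a call lost with 2 times the background subtracted (edgeR adjusted p = 0.401).

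At 100 to 300 CPM the secreted metalloprotease gene ADAMTS1 stood at 183, 156 and 177 in KO against 361, 341 and 364 CPM in WT (-1.04 ± 0.06, edgeR adjusted p = 2.38e-05). IGFBP5, which binds insulin-like growth factors, stood at 87.0, 55.4 and 93.1 against 168, 145 and 161 CPM (-1.01 ± 0.16, adjusted p = 0.00165). ID4, an inhibitor of helix-loop-helix factors, stood at 109, 104 and 113 against 211, 183 and 208 CPM (-0.88 ± 0.06, adjusted p = 5.58e-05). At 300 to 1000 CPM the zinc finger gene ZNF711 (-0.76 ± 0.09), the imprinted retrotransposon-derived PEG10 (-0.70 ± 0.05), the ADP/ATP carrier SLC25A6 (-0.61 ± 0.06), the proteoglycan VCAN (-0.60 ± 0.12) and fibrillin-2 FBN2 (-0.55 ± 0.08) fell. Above 1000 CPM the noncoding XIST was the 1 gene that met the rule in this direction (-0.64 ± 0.10, edgeR adjusted p = 0.00134, or 0.161 with TMM factors from all genes). Folds of SLC25A6, VCAN, FBN2 and XIST turn positive, to at most 0.11, with factors from noncoding genes.

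**Figure D2:**
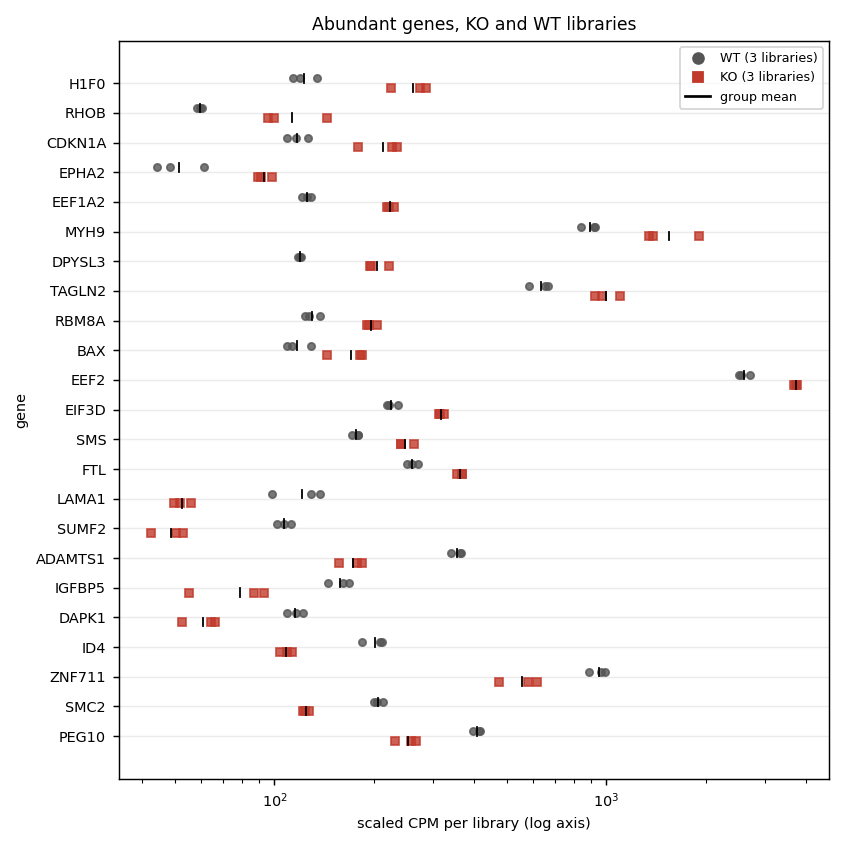
Scaled CPM (horizontal log axis) of 23 abundant genes in each of the 3 WT libraries (grey circles) and 3 KO libraries (red squares), with group means as black ticks. The upper 14 genes were higher in every KO library than in any WT library and the lower 9 were lower in every KO library, as for H1F0 (225 to 287 against 114 to 134 CPM) and SUMF2 (42.5 to 53.0 against 102 to 112 CPM).

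Genes of the translation machinery had mostly calls higher. Of 13 translation elongation and termination genes at 50 CPM or more (15 listed, all tested), 12 were called higher and 0 lower, with a median log2 fold of 0.27, or 0.22 and 0.16 after subtraction of the background once and at 2 times its estimate. The corresponding values over all 5001 genes are 25.6% higher, 26.4% lower and a median of -0.01. These shares vary with the background: of the 1198 abundant genes with under 2% background, 549 were called higher and 178 lower (median 0.09). Lists here and below were not matched to other genes by background share. EEF2, which moves the ribosome along the message by 1 codon, stood at 3753, 3721 and 3665 CPM in KO against 2713, 2537 and 2516 in WT. These groups lay far apart relative to their spread (0.52 ± 0.05, edgeR adjusted p = 0.000294). GNB2L1, the ribosome scaffold RACK1, stood at 1512, 1466 and 1442 against 1245, 1152 and 1132 CPM (0.32 ± 0.05, adjusted p = 0.00138). With 2 times the background subtracted, 7 of the 13 genes were called higher.

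Initiation factors also had mostly calls higher: of 34 at 50 CPM or more (41 listed, 39 tested), 23 were called higher and 2 lower (EIF4G3 and EIF5B), with a median of 0.16. EIF3D, a subunit of the eIF3 complex that can contact the cap, stood at 315, 325 and 313 CPM in KO against 236, 221 and 218 in WT (0.50 ± 0.03, edgeR adjusted p = 6.63e-05). EIF2S1, the alpha subunit of eIF2 that is phosphorylated under stress, stood at 169, 180 and 162 against 126, 127 and 125 CPM (0.43 ± 0.04, adjusted p = 0.000333). The cytoplasmic poly(A)-binding gene PABPC1 stood at 588, 621 and 612 against 471, 440 and 441 CPM (0.43 ± 0.04, adjusted p = 0.000148). With 2 times the background subtracted, 12 of the 34 were called higher, 6 lower, and the median was 0.09.

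Nucleolar genes of ribosome assembly had calls in 1 direction. Of 33 at 50 CPM or more (44 listed, all tested), 18 were called higher and 0 lower, with a median of 0.15 that was 0.14 after either subtraction, and with 2 times the background subtracted 12 were higher and 1 lower. GNL3 (nucleostemin) stood at 126, 129 and 121 CPM in KO against 95.7, 94.9 and 90.1 in WT (0.42 ± 0.04, edgeR adjusted p = 0.000189). The helicase DDX21 rose by 0.35 ± 0.03 and SNU13, a protein of box C/D snoRNPs, by 0.34 ± 0.05. Of 19 cytosolic aminoacyl-tRNA synthetases 9 were called higher and 3 lower (median 0.07), and of 34 mitochondrial ribosome genes 13 and 7 (median 0.06). The shares over all abundant genes were 25.6% higher and 26.4% lower.

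A TOP start was more frequent among the genes that rose. RefSeq starts were found for 4242 of the 5001 abundant genes, and 6.72% of these had a start of the kind shown in capitals above, against 4.04% of all 27305 promoters in the table. The share was 10.9% of the 1071 genes called higher, 4.81% of the 1123 called lower and 5.57% of the 2048 not called. Without ribosomal protein genes the share was 8.51% of genes called higher and 4.55% of those called lower. The 285 genes with such a start had a median log2 fold of 0.07, with 117 called higher and 54 lower, against -0.01 for the 3957 without it. With 2 times the background subtracted these medians were 0.04 and 0.0. Of 37 translation factor genes with a start in the table, 13 had the tract (11 called higher, 0 lower, median 0.29), and the other 24 had 15 called higher and 2 lower (median 0.19). The medians of these 13 and 24 genes were 0.16 and 0.09 with 2 times the background subtracted. These shares are counts of letters at 1 annotated start per gene and were not tested.

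Short motifs were counted in the 300 bases around the start. GGGCGG (SP factors) was found, on either strand, in 71.3% of promoters of genes called higher and 77.2% of those called lower, against 74.4% of all abundant genes and 44.6% of all promoters in the table. CCGGAAG (ETS factors) was found in 26.2%, 20.4%, 22.3% and 10.7% in the same order. TATAAA was found in 13.8% of the 87 genes that rose by 0.4 or more on the log2 scale, 4.43% of all abundant genes and 12% of all promoters. CCAAT (NF-Y) was found in 38.6% of promoters of genes called higher and 37.8% of those called lower, against 46% of the 87 genes that rose by 0.4 or more, 38.1% of all abundant genes and 35.7% of all promoters. TGANTCA (AP-1) was found in 4.58%, 2.85%, 5.75%, 3.75% and 7.76% in the same order as CCAAT. Windows could hold more than 1 of these motifs.

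Among RNA-processing genes, those of the spliceosomal core had mostly calls higher. Over all abundant genes 25.6% were called higher and 26.4% lower. Of 35 Sm, LSm and snRNP genes at 50 CPM or more, 19 were called higher and 2 lower, EFTUD2 and PRPF4 (median 0.14, or 0.04 with 2 times the background subtracted). They include SF3B3 (0.37 ± 0.03) and SF3A1 (0.36 ± 0.04) of the U2 particle and the Sm ring gene SNRPB (0.35 ± 0.06). SF3B3 stood at 593, 596 and 601 CPM in KO against 475, 462 and 449 in WT. Of 22 hnRNP genes 8 were called higher and 0 lower (median 0.05), among them PCBP2 (0.24) and HNRNPF (0.23). Median and counts part here, since the hnRNP median was -0.07 with 2 times the background subtracted. RBM8A (Y14), a core protein of the exon junction complex, stood at 193, 204 and 190 against 137, 124 and 129 CPM (0.60 ± 0.05, edgeR adjusted p = 0.00011), and its list had 5 higher and 1 lower of 11. SR splicing factors (6 higher, 3 lower of 20), RNA exosome genes (2 and 4 of 13), mRNA export (3 and 4 of 14) and deadenylation and decapping genes (3 and 2 of 21) had medians of -0.06 to 0.05.

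Of 24 transcription elongation genes 8 were called higher and 7 lower (median 0.07), against 25.6% and 26.4% of all abundant genes. Both subunits of DSIF, the factor that slows and then aids polymerase II, rose: SUPT4H1 stood at 78.0, 74.9 and 72.2 CPM in KO against 54.1, 54.0 and 54.1 in WT (0.47 ± 0.06, edgeR adjusted p = 0.000688), and SUPT5H rose by 0.36 ± 0.04. SUPT16H, a subunit of the histone chaperone FACT, rose by 0.32 ± 0.03. The genes lower in this list include NELFB (-0.35 ± 0.07, chromosome 9) and NELFE (-0.29 ± 0.04) of NELF, the complex that pauses polymerase II with DSIF, and the kinase gene CDK13 (-0.35 ± 0.08, chromosome 7). With TMM factors from all genes these folds were 0.00, 0.06 and 0.02, and the call of CDK13 was lost with 2 times the background subtracted (-0.13, edgeR adjusted p = 0.271). Of 7 polymerase II subunit genes 2 were called higher and 0 lower, and of 12 Mediator genes 3 and 5 (median -0.09).

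Genes of the proton pump and of actin also had more calls higher than lower, where all abundant genes had 25.6% higher and 26.4% lower. Of 15 V-ATPase genes, whose products acidify lysosomes, 10 were called higher and 3 lower, with a median of 0.18 that was 0.19 and 0.18 after subtraction. ATP6V0D1 (0.36 ± 0.07), ATP6V1C1 (0.34 ± 0.07) and ATP6V0C (0.30 ± 0.08) had the larger increases. The 3 lower members, ATP6V1F (-0.25), ATP6V0E2 (-0.24) and ATP6V1G1 (-0.17), lie on chromosomes 7, 7 and 9, and their folds are 0.10, 0.11 and 0.18 with TMM factors from all genes. Of 39 actin genes and regulators 20 were called higher and 4 lower (median 0.13, or 0.01 with 2 times the background subtracted, when 10 were called higher and 8 lower). Of 8 polyamine genes 5 were called higher and 0 lower (median 0.20). Among these, spermine synthase SMS stood at 241, 263 and 240 CPM in KO against 179, 178 and 171 in WT (0.49 ± 0.04, edgeR adjusted p = 0.000145), the antizyme OAZ1 rose by 0.42 ± 0.06 and the antizyme inhibitor AZIN1 by 0.26 ± 0.05, a call lost with 2 times the background subtracted (adjusted p = 0.062).

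Among protein quality genes, 14 of 35 E2 and ubiquitin genes were called higher and 3 lower, against 25.6% and 26.4% of all abundant genes. The median of these 35 was 0.06, or 0.0 with 2 times the background subtracted. RPS27A, which encodes ubiquitin joined to a ribosomal protein, rose by 0.33 ± 0.04, and the E2 gene UBE2D3 by 0.23 ± 0.03, which was 0.11 and not called with 2 times the background subtracted (edgeR adjusted p = 0.0994). Cullin ligase genes had 4 called higher and 7 lower of 26 (median -0.08), a lower share near that of all abundant genes. The cullins CUL7 (-0.58 ± 0.06) and CUL9 (-0.53 ± 0.13) carry much estimated background, 12.6% of the WT level for CUL7. With 2 times the background subtracted the call of CUL7 was lost (-0.30, edgeR adjusted p = 0.136) and the fold of CUL9 was 0.09. CUL9 lost its call when the background was subtracted once (-0.27, edgeR adjusted p = 0.148). With TMM factors from all genes neither cullin was called (CUL7 -0.22 and CUL9 -0.16, edgeR adjusted p = 0.0583 and 0.166). Of 12 chaperonin and prefoldin genes 6 were called higher and 0 lower, led by PFDN1 (0.34 ± 0.04), CCT5 (0.29 ± 0.05) and CCT8 (0.28 ± 0.03). The median of these 12 was 0.09, or -0.03 with 2 times the background subtracted. SQSTM1 and MAP1LC3B, the cargo receptor p62 and the membrane marker LC3B of autophagy, rose by 0.35 ± 0.05 and 0.30 ± 0.04, in a list with 4 higher and 2 lower of 21. NCOA4, the receptor that delivers ferritin to lysosomes, rose by 0.32 ± 0.03.

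Of 17 apoptosis regulators 6 were called higher and 3 lower, against 25.6% and 26.4% of all abundant genes. BAX, a pore former of the mitochondrial outer membrane, stood at 181, 144 and 184 CPM in KO against 129, 113 and 109 in WT (0.54 ± 0.10, edgeR adjusted p = 0.00225). The survival gene MCL1 rose by 0.31. BIRC6, a giant inhibitor of apoptosis, was lower (-0.42 ± 0.11), with an estimated 14.3% of its WT level in background and a fold of -0.08 with 2 times the background subtracted (adjusted p = 0.704).

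Notch and motor genes had more calls lower than higher, where all abundant genes had 26.4% lower and 25.6% higher. Of 15 Notch pathway genes 8 were called lower and 3 higher (median -0.17, or -0.10 with 2 times the background subtracted). The transcription factor targets HEY1 and HES4 fell: HEY1 stood at 65.4, 43.7 and 65.5 CPM in KO against 98.5, 86.3 and 96.7 in WT (-0.69 ± 0.14, edgeR adjusted p = 0.00294), and HES4 at 59.0, 71.7 and 71.1 against 103, 80.6 and 103 CPM (-0.51 ± 0.12, adjusted p = 0.00584). Among the members that rose were PSENEN (0.37 ± 0.06) and APH1A (0.13, or 0.02 and not called with 2 times the background subtracted), subunits of gamma-secretase, the protease that releases the Notch intracellular part. With TMM factors from all genes 0 of the 15 were called lower and 5 higher. Of 33 kinesin and dynein genes 11 were called lower, a share near that of all abundant genes, and 3 higher (median -0.10), among them the neuronal cargo motor KIF1A (-0.39 ± 0.05) and the Hedgehog regulator KIF7 (-0.39 ± 0.07). With TMM factors from all genes, or with DESeq2, 0 of the 33 were called lower. KIF7 lost its call when the background was subtracted once (-0.27, edgeR adjusted p = 0.0676). Of 29 solute carriers 8 were called higher and 6 lower, shares near those of all abundant genes. The 3 lowest, SLC25A6, SLC25A10 (-0.52 ± 0.09) and SLC25A11 (-0.48 ± 0.05), all belong to the mitochondrial carrier family.

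**Figure D3:**
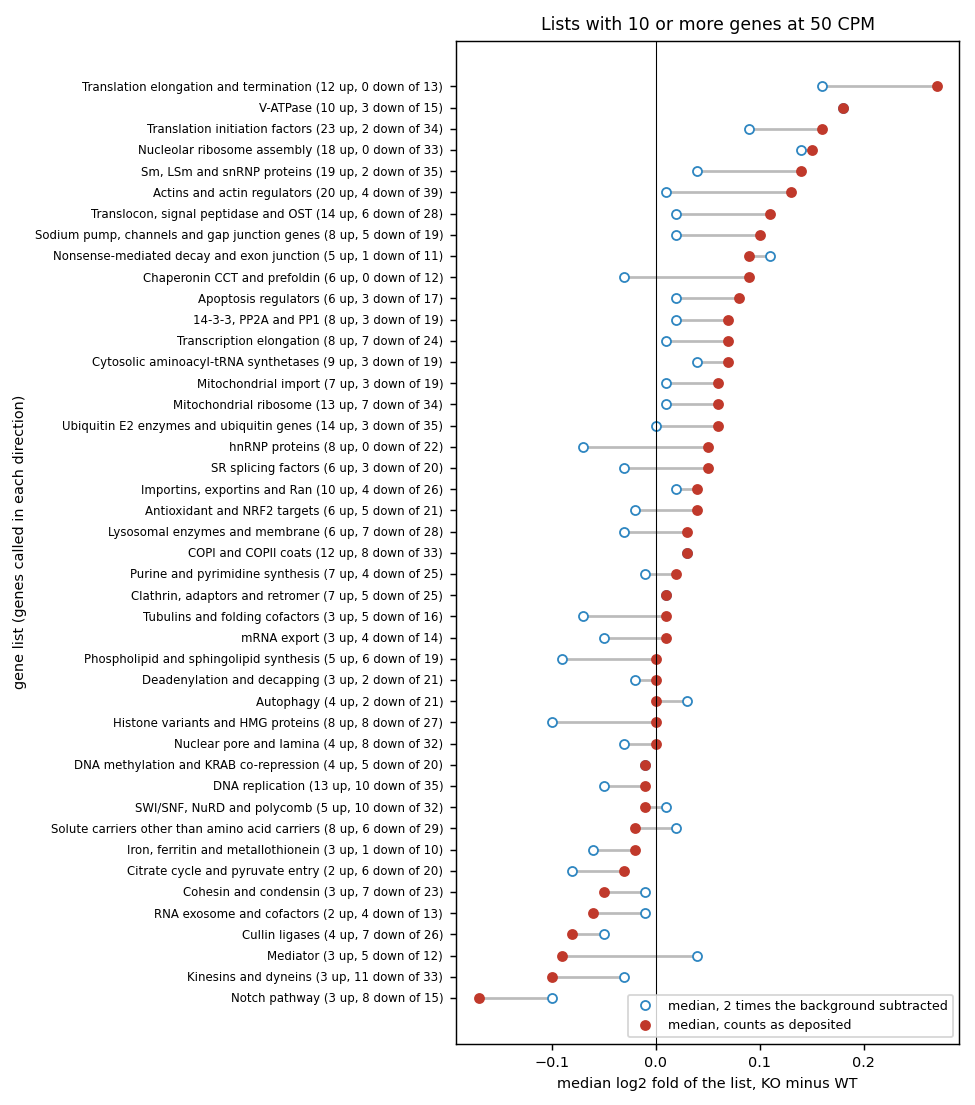
Median log2 fold between KO and WT (horizontal axis) for each gene list with 10 or more genes at 50 CPM or more in both groups, from counts as deposited (filled red) and with 2 times the estimated background subtracted (open blue). Labels give the genes called higher (up) and lower (down). Translation elongation lies highest at 0.27 and the Notch pathway lowest at -0.17.

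Genes of chromosome 9 had the lowest median fold of any chromosome. Of 164 abundant genes on chromosome 9, 150 were called lower (91.5%) and 1 higher, the annexin ANXA1, with a median log2 fold of -0.40. Of 208 on chromosome 7, 136 were lower (65.4%) and 10 higher, with a median of -0.20. On chromosome 6, 140 of 324 were lower and 31 higher (median -0.10), and medians of the other chromosomes lay between -0.09 and 0.09. Without chromosomes 7 and 9 the abundant genes had 27.4% called higher and 22.3% lower. Chromosomes were singled out after the values were seen. Subtraction of the background left the medians at -0.41 for chromosome 9 and -0.21 for chromosome 7. With TMM factors from all genes 27 genes of chromosome 9 and 10 of chromosome 7 were called lower, with DESeq2 57 and 27, and with factors from noncoding genes 0 and 1. With TMM factors from all genes the medians were -0.05 and 0.15, below the shift of 0.35 that this scaling gives the median abundant gene.

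The difference ran along the whole of both chromosomes. In windows of 20 Mb the median fold was between -0.33 and -0.68 in all 6 windows of chromosome 9 that hold abundant genes, and between -0.14 and -0.31 in all 8 of chromosome 7. Chromosome 9 genes held 2.65%, 2.67% and 2.64% of the scaled counts of abundant genes in KO libraries 1 to 3, and 3.41%, 3.43% and 3.35% in WT (exact permutation p = 0.1, two-sided, the smallest that 3 against 3 libraries allow). Chromosome 7 genes held 3.39%, 3.48% and 3.39% in KO against 3.94%, 3.94% and 3.92% in WT (exact permutation p = 0.1, again the smallest possible). KO and WT did not overlap on either chromosome. The addback libraries held 2.63% to 2.68% on chromosome 9 and 3.38% to 3.42% on chromosome 7. From group means against WT, the median log2 ratios on chromosomes 9 and 7 were -0.40 and -0.20 for KO and -0.39 and -0.21 for addback. Both comparisons share the WT libraries. The number of gene copies in these cells was not analysed here.

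**Figure D4:**
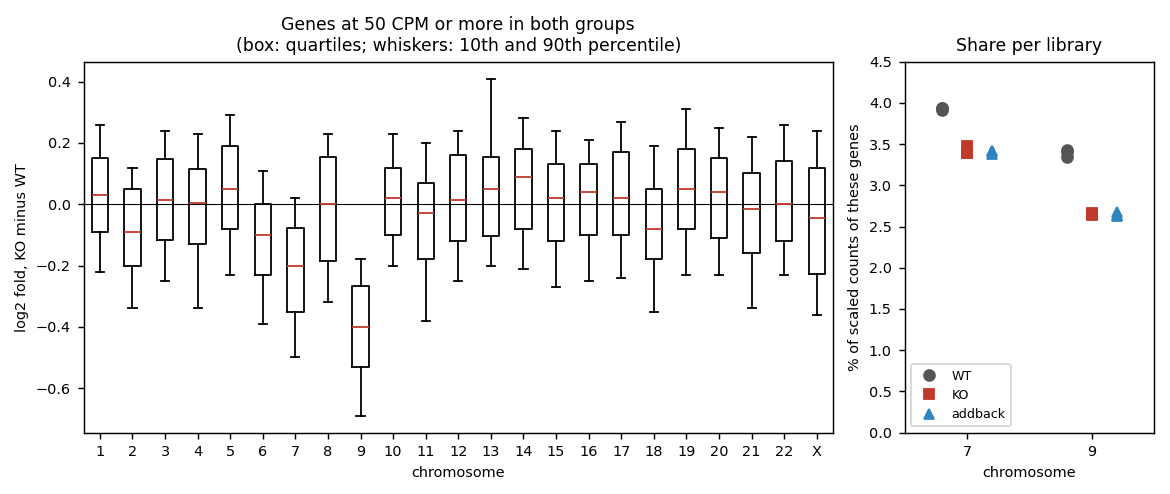
Left, log2 fold between KO and WT (vertical axis) of abundant genes on each chromosome, with boxes at the quartiles, red medians and whiskers at the 10th and 90th percentiles. Right, percent of the scaled counts of abundant genes from chromosomes 7 and 9 in each library of WT, KO and addback: chromosome 9 lies at 3.35% to 3.43% in WT, 2.64% to 2.67% in KO and 2.63% to 2.68% in addback.

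Named genes of chromosome 9 come from many pathways. The kinase gene DAPK1 stood at 66.2, 52.5 and 64.4 CPM in KO against 109, 122 and 116 in WT (-0.92 ± 0.11, edgeR adjusted p = 0.000612), and CERCAM, a cell adhesion gene, at 54.1, 52.4 and 55.3 against 104, 104 and 96.9 CPM (-0.91 ± 0.05, adjusted p = 2.2e-05). The lipid-transfer gene VPS13A (-0.93 ± 0.11) and the Rab regulator DENND4C (-0.95 ± 0.12) were also lower, DENND4C with 15.5% background and no call with 2 times the background subtracted (adjusted p = 0.155). SMC2, the condensin ATPase, stood at 122, 124 and 127 against 204, 199 and 212 CPM (-0.72 ± 0.04, adjusted p = 2.46e-05).

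Of the 1083 abundant genes in the 54 lists, 31 lie on chromosome 9, of which 29 were called lower and 0 higher, and 52 on chromosome 7, of which 25 were called lower. Several of the lower members named by the rule lie on chromosome 9: the remodelling ATPase SMARCA2 (-0.71), the cap-binding gene NCBP1 (-0.62), the nuclear pore gene NUP188 (-0.55), SMC5 (-0.54), the mitochondrial ribosome gene MRPL41 (-0.52), the histone methyltransferase gene EHMT1 (-0.52), the export factor GLE1 (-0.49), the mitochondrial import gene TOMM5 (-0.49), the E2 gene UBE2R2 (-0.48), the exosome gene EXOSC2 (-0.44) and the dynactin gene DCTN3 (-0.44). The cohesin and condensin list had 3 higher and 7 lower of 23, and the SWI/SNF, NuRD and polycomb list 5 and 10 of 32. Both lower shares are near the 26.4% of all abundant genes. The lower members include 2 and 1 genes of chromosome 9, and the list medians were -0.05 and -0.01. STAG1, a cohesin subunit of chromosome 3, was lower as well (-0.46 ± 0.14), a call lost when the background was subtracted (edgeR adjusted p = 0.0869) or without KO library 2 (adjusted p = 0.0678).

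Around UBE3D on chromosome 6, genes within 1 Mb were examined as well. Of 12 tested genes in the window (IBTK, TPBG, UBE3D, DOPEY1, PGM3, RWDD2A, ME1, PRSS35, SNAP91, RIPPLY2, CYB5R4 and MRAP2), 10 were called lower, against 53.8% of all tested genes, and the log2 folds ran from -0.14 to -1.73. With the background subtracted once or at 2 times its estimate 6 and 4 were called lower, and with TMM factors from all genes 3. PRSS35, with the fold of -1.73, was at 0.31 with 2 times the background subtracted. DOPEY1 (83067666-83168471, plus strand), the neighbour upstream of UBE3D, stood at 56.3, 50.7 and 55.6 CPM in KO against 77.7, 79.2 and 119 in WT (-0.76 ± 0.16, edgeR adjusted p = 0.00406). Its estimated background is 20.6% of the WT level, and with 2 times the background subtracted the fold was -0.13 and not called (adjusted p = 0.798).

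Noncoding genes as a whole were lower in KO: of 3329 tested, 125 were called higher and 1587 lower (51.4% called), with a median log2 fold of -1.13. In a fit on KO and WT libraries alone, 935 were called. Most of the decreases were at low levels: of the 1587 genes called lower, 123 had a mean of 5 CPM or more. Of 506 microRNA precursor loci 407 were called lower and 1 higher, and of 843 pseudogenes 511 and 23. Long noncoding genes with at most 3 counts over the KO libraries (1404 genes) carried 0.0412, 0.125 and 0.164 CPM per kilobase in WT libraries 1 to 3 against 0.00349 to 0.00403 in KO. These genes were chosen for few KO counts, so their low KO level was fixed by that choice. Odorant receptor genes, which are coding genes, carried 0.617, 1.67 and 3.06 in WT and 0.010 to 0.0109 in KO. MicroRNA precursor loci carried 1.52, 2.97 and 3.86 CPM per kilobase in WT and 0.793 to 0.809 in KO. The microRNA precursor loci were not chosen by their counts, so excess reads of WT were present at these noncoding loci too. The pseudogene GUCY2EP had 0 counts in KO and 2.55, 14.3 and 20.8 CPM in WT, and HYDIN2 stood at 0.0365 to 0.215 CPM in KO against 3.45, 13.2 and 24.9, both in the order of the background of the WT libraries. Of the 12 noncoding genes named for their decrease, RNF217-AS1 (-2.90 ± 0.60; 4.59, 6.64 and 18.0 CPM in WT) and AGAP11 (-2.85 ± 0.57; 3.65, 13.3 and 14.8 CPM in WT) follow the same order.

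Long noncoding genes with a mean of 5 CPM or more, leaving out pseudogenes, microRNA precursors and small structural RNAs, were also counted on their own. Of these 303 genes, 58 were called higher (19.1%) and 41 lower (13.5%), with a median log2 fold of 0.02. The limit is on the mean of both groups, so a gene can pass through the group where it is high. With 5 CPM required in each group 268 genes were left, 54 called higher and 38 lower. Of the 234 without any overlap with a coding exon, 49 were higher and 26 lower. With TMM factors from all genes 129 were higher and 5 lower. Leaving out KO library 1, 2 or 3 left 24, 19 or 26 genes called lower, and with 2 times the background subtracted 27 were called higher and 43 lower.

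Among noncoding genes LINC00673 (chromosome 17, 72403322-72592804, minus strand) stood at 10.4, 14.6 and 11.6 CPM in KO against 3.22, 2.71 and 2.61 in WT (2.10 ± 0.24, edgeR adjusted p = 0.000585). LINC00641 (chromosome 14, 21200079-21206900, minus strand) had the tighter values of 69.4, 68.2 and 66.9 against 35.9, 34.3 and 34.3 CPM (0.97 ± 0.04, adjusted p = 1.1e-05). IQCH-AS1 (1.17 ± 0.16), LINC00202-1 (1.11 ± 0.21), FLJ42627 (0.91 ± 0.15) and LINC00667 (0.71 ± 0.05) rose as well, as did the pseudogene PRKXP1 (1.06 ± 0.20). LINC01024 (0.85 ± 0.25, adjusted p = 0.0151) lost its call without KO library 1, 2 or 3 (folds of 0.82, 0.87 and 0.87, adjusted p = 0.0659, 0.0515 and 0.0556) and with 2 times the background subtracted (0.70, adjusted p = 0.0847). Leaving out a KO library also ended the call of the pseudogene GTF2H2B (0.78 ± 0.25; adjusted p = 0.0502, 0.0822 and 0.0759), whose exons overlap coding sequence and whose call was also lost when the background was subtracted (1.68, adjusted p = 0.138). The strand setting of the counting is not given in the sources used here, so reads of an antisense gene and its partner cannot be told apart.

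PKI55 (chromosome 2, 216216889-216220192, plus strand) stood at 39.0, 42.9 and 37.8 CPM in KO against 12.1, 12.3 and 13.7 in WT (1.65 ± 0.09, edgeR adjusted p = 1.95e-05). It begins at the end of the downstream-of-gene region of XRCC5, the Ku80 gene, on the same strand (216206294-216216890, overlap of 2 bases), a region that rose by 1.05 ± 0.07 in the authors' deposited table (adjusted p = 3.73e-46). In all, 15 of the 303 long noncoding genes lie end to end with such a region of another gene (overlap of 1 or 2 bases), of which 5 were called higher and 3 lower. Of all 303, 19.1% were called higher and 13.5% lower. LINC00202-1 is also among the 15, beside a region of ANKRD26 that fell by 0.25 in the authors' deposited table (adjusted p = 0.00346). C6orf48 follows a region of HSPA1B with a fold of 0.37 in the authors' deposited table (adjusted p = 0.0128). No region beside the 15 other than those of XRCC5 and HSPA1B was higher at an adjusted p under 0.05. Most of the others were lower in the authors' deposited table, down to -1.01 for the region of STRBP beside MIR600HG (adjusted p = 1.98e-23).

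Hosts of snoRNAs had calls in 1 direction. These genes carry snoRNAs in their introns, and their spliced RNA is noncoding. Of 21 at 5 CPM or more (23 tested), 13 were called higher and 0 lower, with a median log2 fold of 0.29, against 45 higher and 41 lower among the other 282 long noncoding genes (median -0.01). ZFAS1 stood at 41.5, 35.8 and 42.2 CPM in KO against 26.5, 23.9 and 22.2 in WT (0.72 ± 0.09, edgeR adjusted p = 0.000963), and SNHG17 at 36.8, 36.5 and 38.4 against 24.1, 22.1 and 22.4 CPM (0.70 ± 0.08, adjusted p = 0.000723). Outside the rule for named genes, and chosen after their values were seen, C6orf48 (SNHG32) rose by 0.61 ± 0.07, GAS5 by 0.55 ± 0.06, SNHG12 by 0.53 ± 0.12, SNHG1 by 0.42 ± 0.05 and SNHG5 by 0.27 ± 0.07. The groups did not overlap for any of these 7 genes. With 2 times the background subtracted 4 of the 21 were called higher, and the calls of SNHG12 and SNHG5 were lost (adjusted p = 0.0872 and 0.266). Of 18 hosts with a start in the table, 5 (27.8%) had the TOP tract shown above for ZFAS1 and SNHG5. C6orf48 has the tract too, but hosts were recognised by symbol. Under this older symbol it was counted with the other 282 genes and not with the hosts.

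Among long noncoding genes that fell, 5 more were also named after their values were seen. LOC642846 stood at 24.9, 24.3 and 26.2 CPM in KO against 39.7, 56.1 and 45.5 in WT (-0.91 ± 0.15, edgeR adjusted p = 0.00167), and ZNF529-AS1 at 8.03, 6.62 and 7.81 against 13.2, 13.0 and 13.4 CPM (-0.82 ± 0.16, adjusted p = 0.00293). LINC00472 was lower by -0.79 ± 0.19. ASMTL-AS1 (-0.85 ± 0.30, adjusted p = 0.0366) lost its call without KO library 1, 2 or 3 or WT library 1 or 2 (adjusted p from 0.0684 to 0.12), and with the background subtracted once or at 2 times (adjusted p = 0.0532 and 0.138). CDKN2B-AS1, the antisense RNA of the INK4 locus on chromosome 9 (-0.66 ± 0.19, adjusted p = 0.0135), lost it without KO library 1 or 2 (adjusted p = 0.0551 and 0.0584). Of 14 long noncoding genes on chromosome 9, 8 were called lower and 2 higher (median -0.48), and of 25 on chromosome 7, 7 and 3 (median -0.20).

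**Figure D5:**
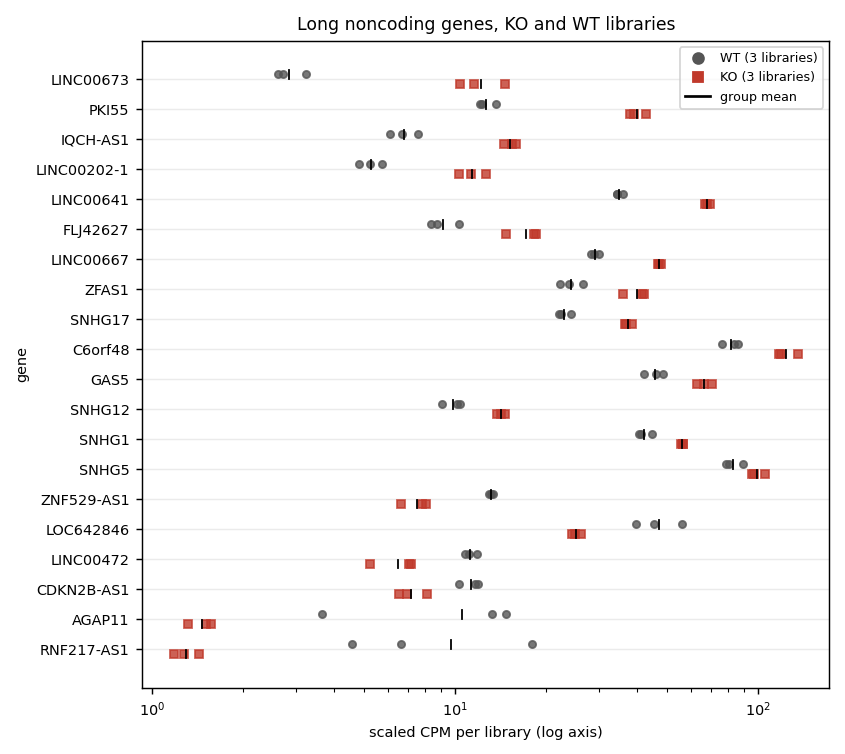
Scaled CPM (horizontal log axis) of 20 long noncoding genes in each of the 3 WT libraries (grey circles) and 3 KO libraries (red squares), with group means as black ticks. The first 14 genes lie higher in every KO library than in any WT library, from LINC00673 (10.4 to 14.6 against 2.61 to 3.22 CPM) to SNHG5, and the last 6 lie lower in every KO library.

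Calls of downstream regions and calls of their host genes often differed. Region folds come from the authors' processing and host calls from the fit used here, so their scaling may differ. With DESeq2 the median abundant gene had a log2 fold of 0.26, against -0.01 in the main fit. The authors' deposited table holds 2541 downstream-of-gene regions, of which 631 were higher (24.8%) and 634 lower (25.0%) in KO at an adjusted p under 0.05. Of these, 794 regions have a single host among the abundant genes, with 279 regions higher, 114 lower and a median log2 fold of 0.16 in the authors' deposited table. Of the 279 higher regions, the host gene was called higher for 95, lower for 47 and not called for 137. Of the 114 lower regions, the host was called lower for 45, higher for 14 and not called for 55. On chromosome 9, 10 of 19 such regions were lower and 2 higher in the authors' deposited table, and on chromosome 7, 10 of 28 and 3.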

How the data were processed

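Poly(A) RNA of 9 libraries was counted per gene by the authors. Per the submitters' processing notes the tools were cutadapt 1.8.1, STAR 2.5.2b and DESeq2 with hg38; the counting program was not given in the sources used here. Whole counts stand in the authors' deposited table beside gene lengths in bases. The authors' deposited result tables give log2 folds, adjusted p-values and region lengths; region starts were raised by 1 base. The column group KO.U was taken as addback, and 0 sample columns went unused.

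Counts were fitted with edgeR 4.0.16 (R 4.3.3; filterByExpr by group, robust quasi-likelihood fit over 9 libraries, genotype only, Benjamini-Hochberg adjustment over 21994 genes). TMM factors came from the 5001 genes at 50 CPM or more in KO and in WT, and scaled CPM use them. Folds are log2 ± standard error. Genes were called noncoding from RefSeq types (25320 symbols matched directly or as synonyms, 967 by gene ID, 198 unmatched). The background is the median count per kilobase of coding exon over 578 tissue-restricted genes. Alternatives included DESeq2 1.42.0, other scalings and subtraction of the background. Steps were tested on simulated data.

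Members and the 54 gene lists were chosen with earlier results of these data known. Genes were named by a rule: called, without overlap of KO and WT, with 1 direction under 4 alternatives, the 8 largest folds per direction in each band of level; 12 noncoding genes per direction with a mean of 5 CPM or more; and 3 called members per list and direction. Some genes that the rule names were left out. Same-number libraries correlated by 0.11, 0.03 and 0.16 in KO against WT, so they were not treated as pairs. Replicates differed beyond sampling noise (chi-square divided by degrees of freedom between 2.96 and 21.7).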

Additional observations from a re-analysis of the deposited data

How the results depend on the processing

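Depth allowed small folds to be tested among abundant genes. Limits lie in the scaling, in the WT background, which is an estimate, and in replicate libraries that may be technical. For the 5001 abundant genes, calls were 3106 higher and 88 lower with TMM factors from all tested genes, 2185 and 519 with upper quartile factors, 3236 and 3 with factors from noncoding genes, and 3062 and 213 with DESeq2. With 2 times the background subtracted 817 were higher. A fold of at least 1.5 left 141 (26 higher, 115 lower), a minimum of 100 CPM 1249 (772 and 477), and a background of at most 5% of the WT level, chosen after seeing the data, 1654 (596 lower). Leaving out 1 library gave 2154 to 2639 calls. Among noncoding genes the 125 higher calls became 290 with TMM factors from all genes, 414 with factors from noncoding genes, 344 with DESeq2, 74 with 2 times the background subtracted, 66 at 1.5-fold and 80 to 113 without 1 library (80 without KO library 1, 81 without KO library 3). KO and WT libraries alone gave 935 noncoding calls (834 lower), and long noncoding genes at 5 CPM, chosen after seeing the data, 99 (58 higher, 41 lower), or 92 (54 and 38) with 5 CPM in each group. A replicate block gave 2922 calls among abundant genes and 1934 among noncoding genes, and the 133 genes named kept direction and call with it. Same-number correlations were 0.11, 0.03 and 0.16, so the numbers were not taken as pairs.

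Of 133 genes named, 75 kept direction and call under all settings run for them and 102 kept direction. Folds that changed sign were those of 31 lower genes with factors from noncoding genes: SLC25A6 0.02, VCAN 0.05, FBN2 0.11, XIST 0.01, ATP6V1F 0.40, ATP6V0E2 0.40, ATP6V1G1 0.47, UBE2R2 0.16, HES4 0.13, DCTN3 0.20, KIF7 0.26, KIF1A 0.26, CUL7 0.08, CUL9 0.15, SMC5 0.12, STAG1 0.23, BIRC6 0.26, SLC25A10 0.12, SLC25A11 0.16, NCBP1 0.05, GLE1 0.17, EXOSC2 0.21, MRPL41 0.12, TOMM5 0.16, NUP188 0.11, EHMT1 0.13, UBE3D 0.03, CDKN2B-AS1 0.01, NELFB 0.29, NELFE 0.35 and CDK13 0.33. NELFE (0.06) and CDK13 (0.02) changed sign with TMM factors from all genes. ATP6V1F, ATP6V0E2 and ATP6V1G1 also changed sign with TMM factors from all genes (0.10, 0.11 and 0.18) and with DESeq2 (0.02, 0.03 and 0.10), and CUL9 with 2 times the background subtracted (0.09). The cause was not tested.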
